A study of Mus musculus with 32 samples.

Results

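The effect of bacterial lipopolysaccharide (LPS) in the presence of the synthetic glucocorticoid dexamethasone was measured by RNA sequencing in mouse bone marrow-derived macrophages with an intact Acod1 gene. The libraries were chosen by their treatment and genotype labels, which gave 8 of the 32 libraries of the series. The group labelled Acod1 WT with dexamethasone plus LPS (dexLPS) had 4 libraries, from cells given 100 nM dexamethasone and 100 ng LPS for 24 h, and the labels state no volume for the LPS. The Acod1 WT group with dexamethasone alone (dex) also had 4 libraries, from cells given 100 nM dexamethasone for 24 h. Effects are set beside 2 further pairs of groups, again with 4 libraries each. One pair was Acod1 WT cells with LPS alone and untreated Acod1 WT cells, and the other was Acod1 KO cells with dexamethasone plus LPS and with dexamethasone alone. All cells were macrophages grown in culture from femur and tibia marrow of mice aged 8 to 12 weeks, in medium with 10% fetal calf serum and 10% supernatant of L929 cells as the source of M-CSF, the growth factor that turns marrow precursors into macrophages. KO marrow came from Irg1-/- mice, Irg1 being the older name of Acod1, and the labels do not state whether WT marrow came from C57BL/6J mice, from Irg1+/+ mice or from both. The labels do not tell whether each replicate is a different animal, and every p-value therefore speaks only of the spread among these libraries, which may be technical.

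LPS, a component of the outer membrane of Gram-negative bacteria, is sensed on macrophages by CD14 and by TLR4 with its partner MD-2. The adaptors MyD88 and TRIF then lead to NF-kappaB, AP-1 and interferon regulatory factors, which switch on cytokines, chemokines, antimicrobial proteins and a later wave of interferon-stimulated genes. Dexamethasone binds the glucocorticoid receptor, encoded by Nr3c1, which activates genes such as Fkbp5, Tsc22d3 and Dusp1 and restrains many inflammatory genes. LPS is also known to change macrophage metabolism, with more glycolysis, stabilised HIF1-alpha and production of itaconate by the enzyme that Acod1 encodes.

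Libraries of the WT groups held 19405833 to 22820271 assigned read pairs with dexamethasone plus LPS and 18234197 to 22788375 with dexamethasone alone, and those of the whole series 17559079 to 25049200. The summed level of 10 macrophage markers, among them Csf1r, Adgre1 and Lyz2, was 30894 to 31846 CPM (counts scaled to library size and between libraries) with dexamethasone plus LPS and 26754 to 27628 CPM with dexamethasone alone, and all 10 were detected in both groups. Markers of other cells were low. The 9 neutrophil markers summed to 28.3 to 29.8 CPM with dexamethasone plus LPS and 93.5 to 98.9 CPM with dexamethasone alone, with Ngp and Ltf at 0 in both groups. Mmp8 averaged 16.1 CPM in dexLPS against 95.7 CPM in dex, and S100a8 11.9 CPM in dexLPS against 0.298 CPM in dex. The 6 B cell markers summed to 2.83 to 3.77 CPM in dexLPS against 52.4 to 55 CPM in dex, nearly all of it Ighm, with Ms4a1 and Pax5 at 0 in both groups. The 6 dendritic cell markers summed to 0.253 to 0.508 CPM in dexLPS against 16.1 to 17.3 CPM in dex, where Flt3 alone averaged 15.4 CPM. T and NK cell, mast cell, erythroid and fibroblast markers summed to at most 2.12 CPM in any of the 8 libraries. The part that these marker levels play in the results was not tested. Ribosomal protein genes took 2.76% ± 0.0407 of counts with dexamethasone plus LPS and 3.25% ± 0.0167 with dexamethasone alone (SD, n = 4 each; exact permutation test, two-sided p = 0.0286, the smallest that 4 against 4 libraries can give). Saa3 alone took 4.12% ± 0.0181 of counts in dexLPS against 2.0e-04% ± 7.1e-05 in dex. In what follows, means are given ± SD over 4 libraries and log2 fold changes of dexLPS over dex ± SE.

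LPS changed most measured transcripts in cells that also received dexamethasone. Of 14427 genes tested, 10581 were called (73.3%) at an adjusted p under 0.05 (edgeR quasi-likelihood test, Benjamini-Hochberg adjustment), with 5123 higher (35.5%) and 5458 lower (37.8%) with LPS. A change of 2-fold or more was called for 1825 genes upward (12.6%) and 2126 downward (14.7%), together 3951 (27.4%). The libraries of the groups did not overlap for 9811 genes (68.0%). Counts of list members called higher or lower below are to be read beside the 35.5% and 37.8% of all tested genes. The median log2 fold change over all tested genes was -0.044. Without scaling between libraries that median was lower by 0.19 (a shift of -0.19) and 35.4% of the called genes were higher, against 48.4% with it. Since these are bulk samples, a change in the RNA per cell and a change in the number of cells of a kind cannot be told apart.

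The acute-phase and antimicrobial proteins included the gene with the largest rise. Of 20 tested members 16 rose, Chil3 fell, and Hamp, Lyz1 and Lyz2 were not called. Their median log2 fold change was 8.96, or 6.99 with the 7 genes that had 3 or fewer counts in a group set to 3 counts over the group. Saa3, the serum amyloid A of macrophages, had 43276, 43607, 43147 and 42698 CPM in dexLPS, against 1.26, 1.64, 2.75 and 1.65 CPM in dex. All 4 libraries with LPS were far above the others, and the log2 fold change was 14.54 ± 0.11 (SE, adjusted p = 1.1e-58). Lcn2, a lipocalin that withholds iron from bacteria by binding siderophores, had 8599, 8595, 8829.6 and 8424 CPM in dexLPS, against 5.49, 4.88, 5.05 and 4.68 CPM in dex. Its groups did not overlap (log2 fold change 10.75 ± 0.072). Hp, haptoglobin, which binds free haemoglobin, had 7615, 7699.7, 7677 and 7579.8 CPM in dexLPS, against 57, 52.9, 59.9 and 52.4 CPM in dex, again without overlap (log2 fold change 7.11 ± 0.059). Cp, the copper ferroxidase ceruloplasmin, averaged 798 ± 38.8 CPM in dexLPS against 0.728 ± 0.239 CPM in dex. Complement factor B, encoded by Cfb, had 2 counts in all with dexamethasone alone, and its count ratio was 3816-fold (95% counting interval 1056 to 31512). Saa1 and Saa2, liver-type serum amyloids that are close in sequence, had 0 counts with dexamethasone alone and were at least 361-fold and at least 101-fold higher with dexamethasone plus LPS (0 set to 3 counts over the group). Chil3, a chitinase-like protein of alternatively activated macrophages, went the other way, with 6.52, 7.52, 7.35 and 6.75 CPM in dexLPS, against 66.6, 62, 71.5 and 59.3 CPM in dex (log2 fold change -3.20 ± 0.091).

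The upstream sequence of Saa3 is shown because no other gene took so large a share of the counts in dexLPS. It covers the 150 bases before the annotated start (chr7:46715677-46715826, minus strand, RefSeq on GRCm38.p6), written 5′ to 3′ in the direction of transcription, with capitals marking a match to 2 copies of GAAA with any 2 bases between them, the core of the element bound by interferon regulatory and STAT factors.
Saa3: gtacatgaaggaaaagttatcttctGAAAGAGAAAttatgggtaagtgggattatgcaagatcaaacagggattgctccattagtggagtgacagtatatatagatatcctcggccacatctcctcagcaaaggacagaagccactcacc
The match begins 125 bases before the start. A match describes letters only and shows no binding.

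**Figure D1:**
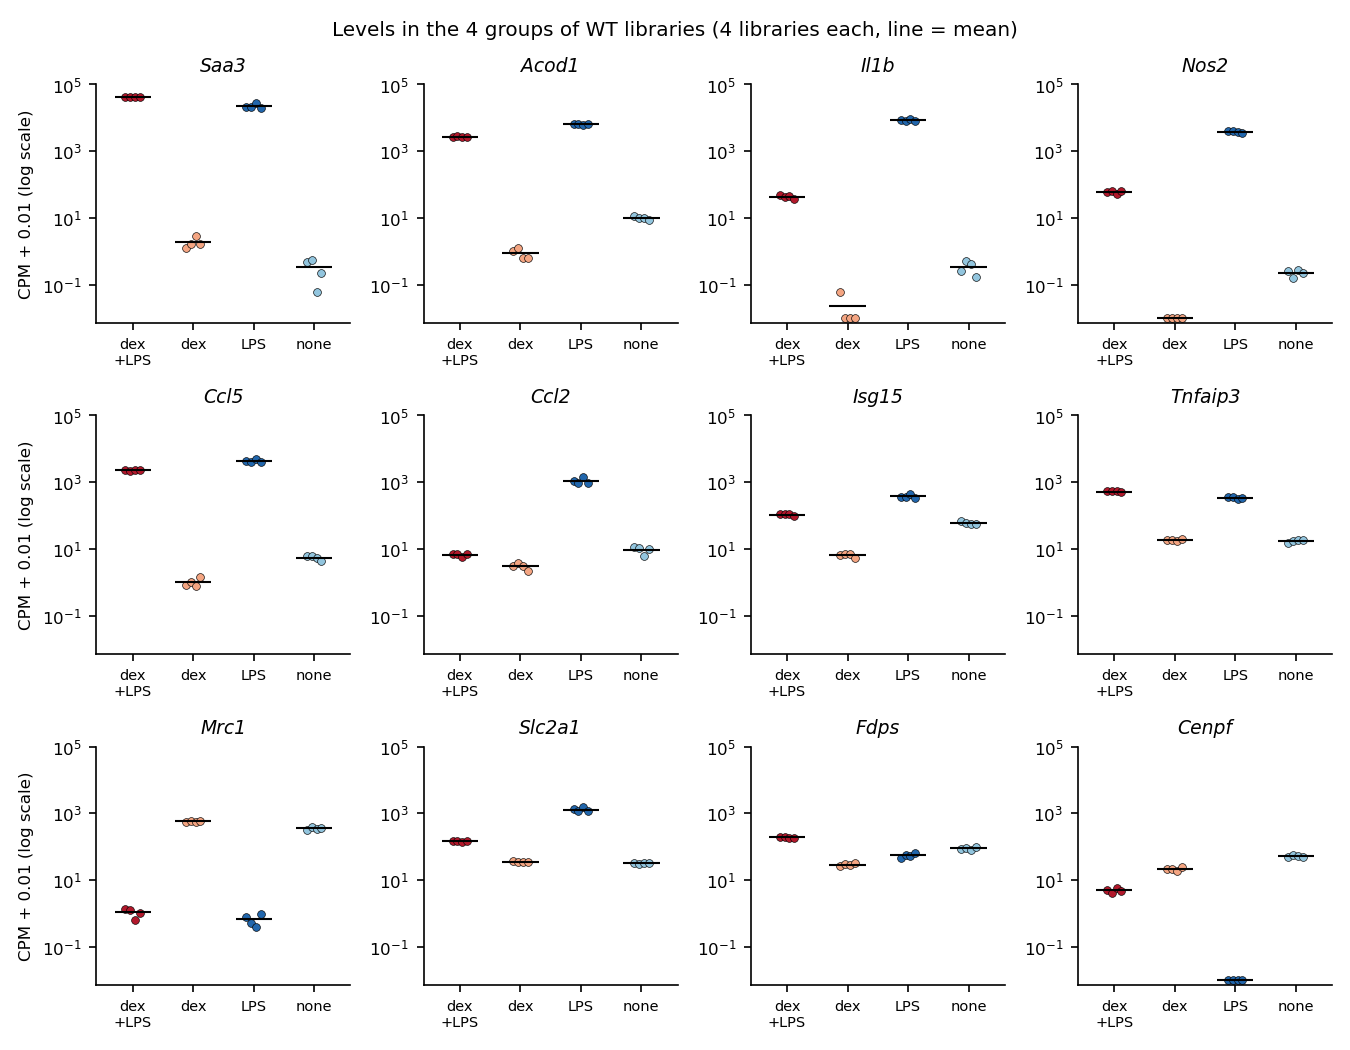
Levels of 12 genes in the 4 groups of WT libraries, as CPM + 0.01 on a log axis (points, 1 library each; lines, group means; dex, dexamethasone; none, untreated). Saa3, Acod1, Ccl5 and Tnfaip3 were high in all libraries with LPS, Ccl2 reached 1099 CPM on average with LPS alone and 6.69 CPM with dexamethasone plus LPS, and Fdps was highest with dexamethasone plus LPS.

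Other large rises were in genes of varied function. Susd2, a membrane protein with a sushi domain, had 1056, 1064, 1017 and 981 CPM in dexLPS, against 0.151, 0, 0.1 and 0.0446 CPM in dex (log2 fold change 13.75 ± 0.22). Marco, a scavenger receptor that binds bacteria, had 606, 604, 612 and 609 CPM in dexLPS, against 0.202, 0.12, 0.1 and 0.134 CPM in dex. No library of one group came near the other for either gene. Mmp14, a membrane-bound matrix metalloproteinase, averaged 769.9 ± 15.6 CPM in dexLPS against 0.237 ± 0.216 CPM in dex (log2 fold change 11.54 ± 0.096). Gfi1, a transcriptional repressor of myeloid development, had 36.5, 34.8, 36.1 and 30.8 CPM in dexLPS, against 0 CPM in every library in dex, which is at least 1004-fold higher. Itgb8, an integrin subunit that activates latent TGF-beta, also had 0 counts with dexamethasone alone and was at least 608-fold higher. Ly6i, of a family of near-identical Ly6 genes among which reads may be shared, had 2 counts with dexamethasone alone, and its count ratio was 4612-fold (95% counting interval 1276 to 38093). Fth1, the ferritin heavy chain, and Cybb, the catalytic subunit of the phagocyte NADPH oxidase, were already abundant and rose further, Fth1 to 27915 ± 385 CPM in dexLPS against 9038 ± 214 CPM in dex (log2 fold change 1.63 ± 0.034) and Cybb to 7716 ± 88.5 CPM in dexLPS against 865 ± 9.32 CPM in dex (3.16 ± 0.044).

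The largest falls were in genes of varied function as well. Mrc1, the mannose receptor CD206, had 1.36, 1.25, 0.594 and 1.03 CPM in dexLPS, against 535, 589.6, 555 and 584 CPM in dex. The groups were far apart (log2 fold change -9.04 ± 0.11, adjusted p = 1.8e-49). Slco2b1, an organic anion transporter, had 0 CPM in every library in dexLPS, against 17.2, 18.1, 18.2 and 17.4 CPM in dex, which is at least 475-fold lower. Hpgd, which inactivates prostaglandins, had 0.0505, 0, 0.162 and 0.0489 CPM in dexLPS, against 74.7, 77.4, 72.3 and 66.3 CPM in dex (log2 fold change -10.06 ± 0.19). Cd5l, a secreted scavenger protein of tissue macrophages, had 0.101, 0.277, 0.054 and 0.245 CPM in dexLPS, against 35.7, 37.9, 38.7 and 38.6 CPM in dex. Neither gene overlapped between the groups. Cbr2, a carbonyl reductase, fell to 1.36 ± 0.104 CPM in dexLPS against 218 ± 8.81 CPM in dex (-7.32 ± 0.08), and Emp1, an epithelial membrane protein, to 2.76 ± 0.478 CPM in dexLPS against 432 ± 23.8 CPM in dex (-7.28 ± 0.12). Dmpk, a protein kinase, averaged 0.0515 ± 0.0596 CPM in dexLPS against 9.51 ± 0.968 CPM in dex. Klk1b11, one of a cluster of similar kallikrein genes, Cd300ld3, of the CD300 receptor family, and Shisa9 were down to 2, 2 and 3 counts with dexamethasone plus LPS, and were lower by count ratios of 376-fold (95% counting interval 104 to 3110.2), 281-fold (95% counting interval 77.4 to 2323) and 176-fold (95% counting interval 59.9 to 856).

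Most proinflammatory cytokine genes rose. Of 15 tested proinflammatory cytokines 13 rose, Il15 and Il18 fell, and the median log2 fold change was 4.67, or 3.10 with the 6 members at 3 or fewer counts set to that floor. Il1b, which encodes interleukin-1 beta, had 47.8, 41.5, 44.1 and 35.9 CPM in dexLPS, against 0.0504, 0, 0 and 0 CPM in dex. That is 1 count in all with dexamethasone alone, and the count ratio was 3684-fold (95% counting interval 661 to 145541). Il1a averaged 89.5 ± 9.08 CPM in dexLPS against 0.0724 ± 0.095 CPM in dex. Il6 had 6.87, 6.28, 7.45 and 5.53 CPM in dexLPS, against 0 CPM in every library in dex, at least 189-fold higher. Tnf, tumour necrosis factor, had 148, 161, 128 and 129 CPM in dexLPS, against 5.09, 4.28, 5.65 and 5.18 CPM in dex. Its groups did not overlap (log2 fold change 4.82 ± 0.094, adjusted p = 8.3e-41). Csf3, the granulocyte growth factor G-CSF, had 0 counts with dexamethasone alone and was at least 515-fold higher. Il12a and Il12b, the subunits of interleukin-12, stayed at means of 2.86 and 2.1 CPM with dexamethasone plus LPS, against 0 and 0.0125 CPM with dexamethasone alone. Il15, which sustains natural killer and memory T cells, fell to 4.84 ± 0.39 CPM in dexLPS against 23.3 ± 2.01 CPM in dex (log2 fold change -2.26 ± 0.095). Among 10 anti-inflammatory cytokine and receptor genes 4 rose and 3 fell, with a median of -0.0051. Il1rn, the interleukin-1 receptor antagonist, rose to 18.9 ± 1.37 CPM in dexLPS against 1.31 ± 0.351 CPM in dex (3.87 ± 0.14), while Il10, Tgfb1 and Il4ra were not called. Il10ra, a subunit of the interleukin-10 receptor, fell to 102 ± 5.63 CPM in dexLPS against 167 ± 3.31 CPM in dex (-0.71 ± 0.042), Il13ra1 to 8.88 ± 0.937 CPM in dexLPS against 20 ± 1.83 CPM in dex (-1.18 ± 0.082) and Il10rb to 5.63 ± 0.622 CPM in dexLPS against 7.06 ± 0.99 CPM in dex (-0.34 ± 0.14). Il10rb was not called with DESeq2 (adjusted p = 0.081), nor without dex replicate 2 (edgeR, -0.23, adjusted p = 0.159) or without dexLPS replicate 2 (-0.27, adjusted p = 0.106). Without scaling between libraries Tgfb1 and Il4ra were called lower as well, which made 5 lower.

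Among 17 tested inflammatory enzymes 12 rose and 4 fell, and Arg1 was not called, with 0 counts with dexamethasone plus LPS and 5 with dexamethasone alone. Acod1, the itaconate-producing enzyme, had 2748, 2783, 2708 and 2712 CPM in dexLPS, against 1.01, 1.24, 0.601 and 0.625 CPM in dex. The groups were separated by a log2 fold change of 11.59 ± 0.081 (adjusted p = 2.0e-59). Nos2, inducible nitric oxide synthase, had 58.1, 64.1, 52.3 and 65.4 CPM in dexLPS, against 0 CPM in every library in dex, at least 1752-fold higher. Ptgs2, cyclooxygenase-2, averaged 46.6 ± 2.56 CPM in dexLPS against 0.169 ± 0.132 CPM in dex (8.03 ± 0.22), and Ptges, the prostaglandin E synthase downstream of it, 576 ± 7.7 CPM in dexLPS against 3 ± 0.251 CPM in dex (7.59 ± 0.063). Slc7a2, which imports arginine, averaged 1102 ± 36.9 CPM in dexLPS against 10.9 ± 0.582 CPM in dex (6.66 ± 0.062). The falls were in leukotriene and tryptophan metabolism. Alox5, 5-lipoxygenase, fell to 3.55 ± 0.142 CPM in dexLPS against 56.7 ± 1.83 CPM in dex (-4.00 ± 0.1), and Alox5ap, Kynu and Kmo were lower too.

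Chemokines split. Of 22 tested, 14 rose, 4 fell (Ccl6, Ccl9, Ccl12 and Ccl24) and 4 were not called, and the median log2 fold change was 2.16, or 1.65 with the 6 members at 3 or fewer counts set to that floor. Ccl5, a T cell and monocyte attractant, had 2289.8, 2228, 2333 and 2307 CPM in dexLPS, against 0.806, 0.999, 0.751 and 1.47 CPM in dex (log2 fold change 11.12 ± 0.087). Ccl3, an attractant of monocytes and other leukocytes, had 586, 604, 559.8 and 556 CPM in dexLPS, against 53.7, 56.6, 50.4 and 49.7 CPM in dex. Neither overlapped between groups. Cxcl2, a neutrophil attractant, averaged 129 ± 16.5 CPM in dexLPS against 2.42 ± 0.514 CPM in dex (5.74 ± 0.12). Cxcl3, of the same neutrophil-attracting family, had 0 counts with dexamethasone alone and was at least 326-fold higher. Ccl2, the main monocyte attractant, rose less, with 7.08, 7.06, 5.67 and 6.95 CPM in dexLPS, against 3.07, 3.64, 3.05 and 2.14 CPM in dex (log2 fold change 1.16 ± 0.25, higher in 4 of 4 libraries). Ccl6 fell to 5.4 ± 0.671 CPM in dexLPS against 136 ± 2.49 CPM in dex (-4.65 ± 0.065). Fitted without the other 6 groups of the series, 2 chemokines were called lower in place of 4. The fall of Ccl12 (-1.47) was not called without dex replicate 1 (-1.20) or without dexLPS replicate 2 (-1.23).

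Receptors for chemoattractants fell more often than they rose, 9 of 15 tested against 5. Of all tested genes 37.8% were called lower and 35.5% higher. Fpr1 and Fpr2, which sense formylated bacterial peptides, rose to 239.8 ± 13.6 CPM in dexLPS against 0.151 ± 0.0841 CPM in dex (10.59 ± 0.12) and 265 ± 3.04 CPM in dexLPS against 0.276 ± 0.148 CPM in dex (9.88 ± 0.11). Ccr2, the receptor for Ccl2, had 0.303, 0.231, 0.108 and 0.44 CPM in dexLPS, against 21, 21.1, 20.4 and 20 CPM in dex. Cx3cr1, the fractalkine receptor, averaged 5.17 ± 0.688 CPM in dexLPS against 45.4 ± 3.16 CPM in dex (-3.14 ± 0.093), and Cxcr4, which retains cells in marrow, 44.1 ± 2.16 CPM in dexLPS against 428 ± 15.4 CPM in dex (-3.28 ± 0.058). Ccr2, Cx3cr1 and Cxcr4 all fell without overlap between the groups.

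The NF-kappaB list was made of subunits, inhibitors that NF-kappaB itself switches on and other signalling genes, such as Traf1, Ikbke and Ripk2. It had 24 of 28 members higher, Otulin and Rel lower, and Rela and Birc2 not called. The median log2 fold change was 1.95. Without scaling between libraries Rela and Birc2 were called lower too, which made 4 lower. Tnfaip3, the ubiquitin-editing inhibitor A20, had 526, 527, 529 and 514 CPM in dexLPS, against 18.2, 18.6, 17.2 and 19.9 CPM in dex (log2 fold change 4.82 ± 0.049, adjusted p = 5.9e-53). Traf1, an adaptor of TNF receptors, had 316, 307, 314 and 300.0 CPM in dexLPS, against 5.8, 6.16, 5.1 and 6.78 CPM in dex. Both were raised in 4 of 4 libraries. Nfkbia, the inhibitor IkappaB-alpha, averaged 485 ± 9.41 CPM in dexLPS against 107 ± 7.72 CPM in dex (2.18 ± 0.044), Nfkb2, a precursor subunit, 208 ± 4.98 CPM in dexLPS against 42.2 ± 1.18 CPM in dex (2.30 ± 0.045), and Relb 66.7 ± 3.36 CPM in dexLPS against 15.6 ± 0.921 CPM in dex (2.09 ± 0.065). Sod2, mitochondrial superoxide dismutase and a known NF-kappaB target, had 1665, 1685, 1704 and 1647 CPM in dexLPS, against 68.8, 64, 67.1 and 68.1 CPM in dex (log2 fold change 4.64 ± 0.037).

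Start-proximal sequences of Tnfaip3, Il6 and Sod2 are shown as examples of the NF-kappaB element in genes that rose. Each covers the 150 bases before an annotated start (RefSeq on GRCm38.p6; Tnfaip3 chr10:19015411-19015560, minus strand; Il6 chr5:30012964-30013113, plus strand; Sod2 chr17:13007689-13007838, plus strand), 5′ to 3′ in the direction of transcription, with capitals marking matches to the NF-kappaB consensus on either strand.
Tnfaip3: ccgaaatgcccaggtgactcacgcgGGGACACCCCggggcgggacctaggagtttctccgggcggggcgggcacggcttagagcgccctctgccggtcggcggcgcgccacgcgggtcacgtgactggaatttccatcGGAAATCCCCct
Il6: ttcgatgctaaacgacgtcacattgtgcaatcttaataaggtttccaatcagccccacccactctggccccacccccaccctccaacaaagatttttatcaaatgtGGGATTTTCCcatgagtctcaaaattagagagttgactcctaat
Sod2: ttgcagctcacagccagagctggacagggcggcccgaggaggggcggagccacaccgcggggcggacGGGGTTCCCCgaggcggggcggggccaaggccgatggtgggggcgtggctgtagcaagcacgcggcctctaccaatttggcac
The consensus was found in 12 of 30 promoters (40%) of the 23 list genes with a promoter in the table, counting 250 bases before to 50 after each start. The table held 12956 promoters of 10176 of the 14427 tested genes, and the consensus was in 1341 of them (10.4%). It was in 210 of 1642 promoters (12.8%) of 1260 of the 1825 genes that rose 2-fold or more, and in 196 of 1821 promoters (10.8%) of 1398 of the 2126 that fell 2-fold or more. A stricter spelling with fewer letters allowed was in 4 of 30 promoters of the list (13.3%), in 41 of all 12956 (0.316%), in 11 of the 1642 of genes that rose (0.67%) and in 5 of the 1821 of genes that fell (0.275%).

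Feedback genes of the SOCS, DUSP and mRNA-decay list moved both ways, 10 up and 8 down of 19. Socs3, an inhibitor of JAK-STAT signalling, had 269.8, 271, 282 and 269.7 CPM in dexLPS, against 4.13, 5.92, 4.35 and 4.86 CPM in dex (log2 fold change 5.81 ± 0.087). Dusp1, the phosphatase that switches off p38 and JNK and a classical glucocorticoid target, had 347, 374, 339 and 336 CPM in dexLPS, against 101, 106, 104 and 109.8 CPM in dex, a further rise without overlap (1.73 ± 0.066). Zfp36, the mRNA-decay factor tristetraprolin, fell to 41.5 ± 4.31 CPM in dexLPS against 102 ± 4.08 CPM in dex (-1.29 ± 0.078), and its relative Zfp36l1 to 20.4 ± 1.26 CPM in dexLPS against 136 ± 6.9 CPM in dex (-2.74 ± 0.07).

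Of 21 tested genes of LPS and toll-like receptor sensing 15 fell and 6 rose. Tlr4, the LPS receptor, had 94.7, 96.8, 94.5 and 96.6 CPM in dexLPS, against 198, 196, 183 and 179.8 CPM in dex (log2 fold change -0.99 ± 0.045). Cd14, its co-receptor, had 1552, 1566, 1505 and 1509 CPM in dexLPS, against 434, 391, 416 and 416 CPM in dex (1.89 ± 0.036). Tlr2, the receptor for bacterial lipoproteins, had 751, 769, 798 and 752 CPM in dexLPS, against 89.9, 96, 92.4 and 90.7 CPM in dex (3.06 ± 0.052). The groups overlapped for none of these, and Tlr4 was lower while Cd14 and Tlr2 were higher with LPS. Tlr9 and Tlr13, endosomal sensors of bacterial nucleic acids, fell to 6.63 ± 1.42 CPM in dexLPS against 37.7 ± 1.01 CPM in dex and 281 ± 6.84 CPM in dexLPS against 651 ± 12 CPM in dex. Of 16 inflammasome and pyroptosis genes 10 rose and 3 fell (5 without scaling between libraries), with Mefv, which encodes pyrin, at 27.8 ± 1.01 CPM in dexLPS against 0.129 ± 0.0656 CPM in dex (7.72 ± 0.19), Nlrp3 at 287 ± 7.24 CPM in dexLPS against 115 ± 2.66 CPM in dex (1.31 ± 0.038) and Casp4, the mouse caspase-11 that binds cytosolic LPS, at 56.7 ± 0.501 CPM in dexLPS against 17.7 ± 1.17 CPM in dex (1.68 ± 0.062).

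All 44 tested interferon-stimulated genes rose, with a median log2 fold change of 1.62, against the 35.5% of all genes that were called higher. All 44 had groups without overlap, against 68.0% of all tested genes. The smallest change was that of Irf9, the DNA-binding subunit of the interferon-activated complex ISGF3, with 91.3 ± 1.69 CPM in dexLPS against 72.5 ± 1.83 CPM in dex (0.33 ± 0.04). Isg15, a ubiquitin-like modifier, had 110.4, 108, 111 and 97 CPM in dexLPS, against 6.45, 6.92, 6.81 and 5.35 CPM in dex (log2 fold change 4.06 ± 0.086). Ifit1, which blocks translation of viral RNA, had 138, 136, 143 and 138 CPM in dexLPS, against 13.5, 8.23, 10.5 and 9.1 CPM in dex (3.76 ± 0.08). Gbp2 and Gbp5, guanylate-binding proteins that attack vacuoles of pathogens, rose to 146 ± 4.78 CPM in dexLPS against 7.17 ± 0.959 CPM in dex (4.35 ± 0.063) and 38.4 ± 2.33 CPM in dexLPS against 1.55 ± 0.674 CPM in dex (4.61 ± 0.11). For each of these genes the lowest dexLPS library lay above the highest dex library. Zbp1, a sensor of Z-form nucleic acid, rose to 143 ± 3.45 CPM in dexLPS against 7.96 ± 0.509 CPM in dex (4.17 ± 0.06). Irf7, the factor that amplifies interferon production, rose to 399 ± 9.66 CPM in dexLPS against 32.9 ± 2.87 CPM in dex (3.61 ± 0.057).

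Upstream sequences of Isg15 and Ifit1 are shown as examples of an element found in some promoters of this list. They cover the 150 bases before the annotated start (RefSeq on GRCm38.p6; Isg15 chr4:156200819-156200968, minus strand; Ifit1 chr19:34640739-34640888, plus strand), 5′ to 3′ in the direction of transcription, with capitals marking matches to GAAA, any 2 bases and GAAA on either strand.
Isg15: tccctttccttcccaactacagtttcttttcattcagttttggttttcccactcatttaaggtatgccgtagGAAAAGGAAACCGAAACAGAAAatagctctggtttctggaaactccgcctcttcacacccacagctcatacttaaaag
Ifit1: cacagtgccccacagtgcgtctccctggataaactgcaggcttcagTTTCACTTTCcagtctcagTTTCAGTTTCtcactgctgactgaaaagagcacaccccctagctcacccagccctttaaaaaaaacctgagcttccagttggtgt
Overlapping matches, 3 in number, lie in the Isg15 sequence and a pair in that of Ifit1. The letters were found in 20 of 38 promoters (52.6%) of the 32 list genes with a promoter in the table. They were in 423 of the 12956 promoters in the table (3.26%), in 92 of 1642 of the genes that rose 2-fold or more (5.6%), in 62 of 1821 of those that fell 2-fold or more (3.4%) and in 0 of 30 of the NF-kappaB list. With T required as the second base between the copies, the letters were in 13 of 38 promoters of the list (34.2%) and in 105 of all 12956 (0.81%).

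Genes of antigen presentation followed. Of 12 tested genes of co-stimulation and MHC class II presentation 10 rose, with a median log2 fold change of 2.16, and H2-DMa and Cd86 fell. The call of H2-DMa (-0.26) was lost without dex replicate 4 (-0.16) and without dexLPS replicate 3 (-0.18). H2-Ab1, the beta chain of I-A, had 105, 106, 104 and 96.1 CPM in dexLPS, against 2.12, 3.28, 2.3 and 1.83 CPM in dex (5.41 ± 0.088). Ciita, the master regulator of class II genes, averaged 1.84 ± 0.467 CPM in dexLPS against 0.474 ± 0.157 CPM in dex (1.91 ± 0.27). Cd74, the invariant chain, rose to 63 ± 2.48 CPM in dexLPS against 19 ± 0.765 CPM in dex (1.73 ± 0.072), Cd274, which encodes PD-L1, to 146 ± 4.21 CPM in dexLPS against 12.2 ± 1.46 CPM in dex (3.58 ± 0.063), and Cd40 to 21.9 ± 0.872 CPM in dexLPS against 3.46 ± 0.318 CPM in dex (2.67 ± 0.096). Of 18 class I and immunoproteasome genes 17 rose, H2-K1 to 2231 ± 36.2 CPM in dexLPS against 1097 ± 27.2 CPM in dex (1.02 ± 0.035) and Psmb9 to 43.8 ± 1.95 CPM in dexLPS against 29.8 ± 0.771 CPM in dex (0.55 ± 0.058). H2-D1 was lower by a margin at the threshold (-0.11 ± 0.045, adjusted p = 0.0275), and under scaling by RLE size factors or with DESeq2 it was not called, nor without dex replicate 1 or 3 or dexLPS replicate 4. Class I genes are similar in sequence, so reads may be shared among them.

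**Figure D2:**
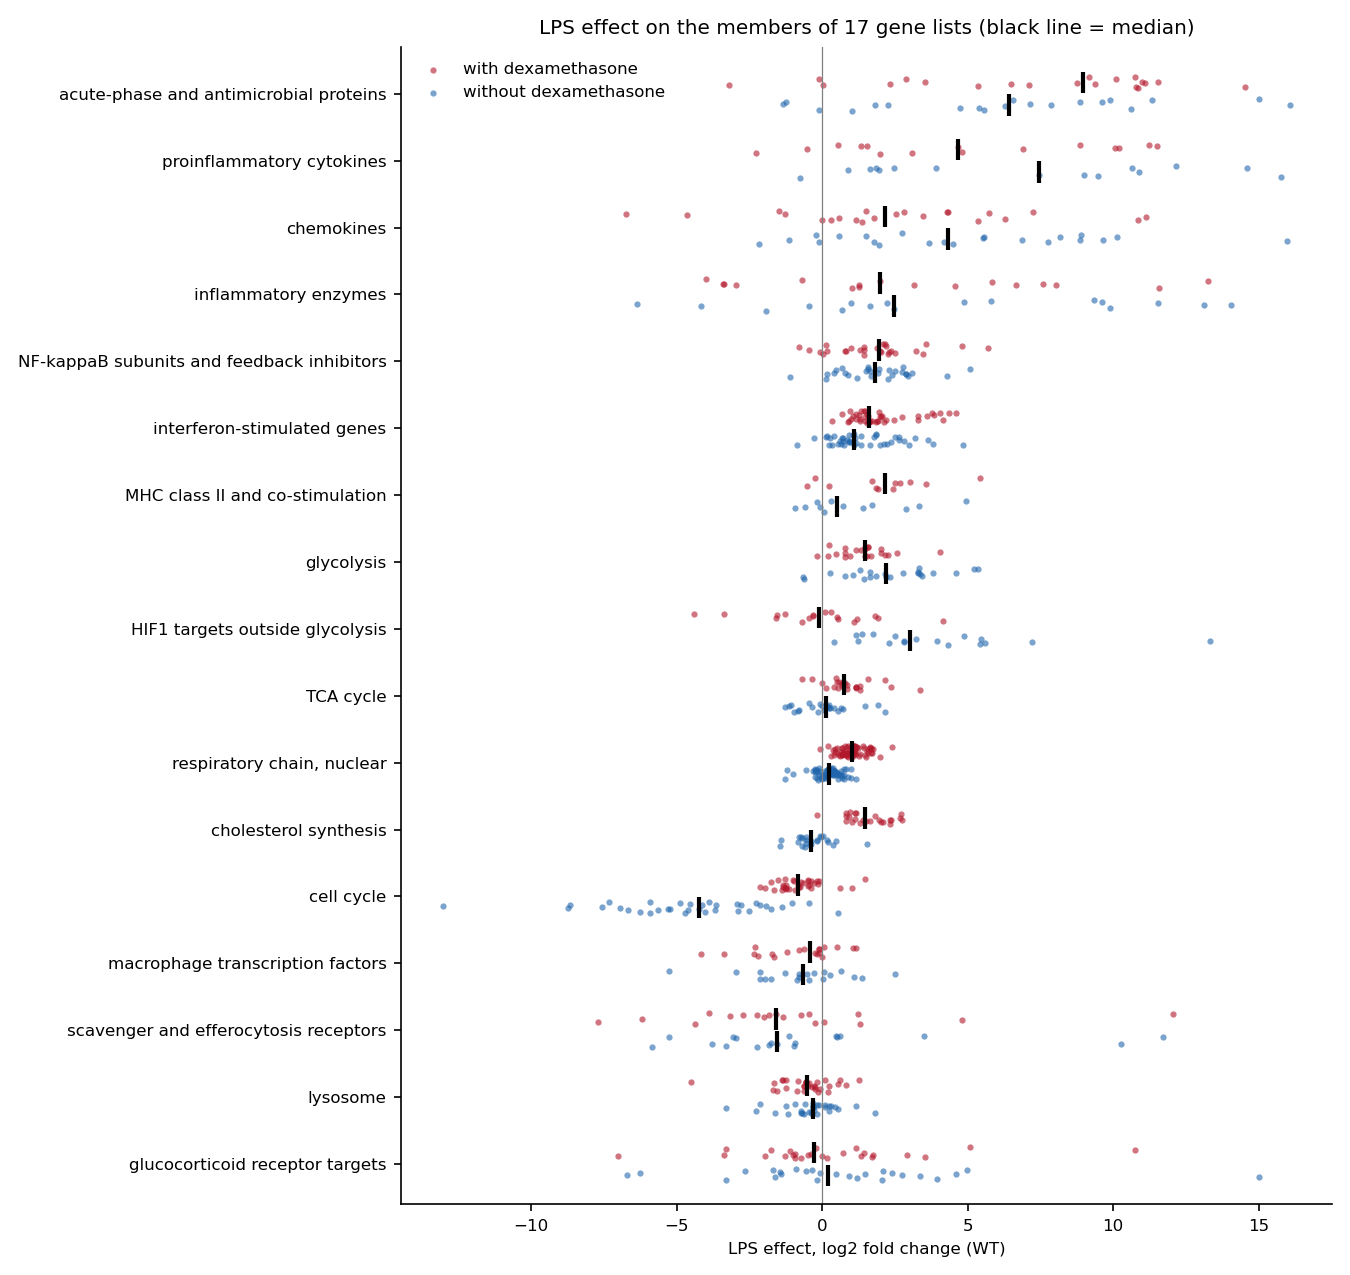
Log2 fold change of each member of 17 gene lists (points) for LPS with dexamethasone (red, dexamethasone plus LPS over dexamethasone alone) and without it (blue, LPS alone over untreated), WT; black lines are medians. Interferon-stimulated genes were all above 0 with dexamethasone, HIF1 targets had medians of -0.10 with and 3.02 without dexamethasone, and cell cycle genes of -0.83 with and -4.23 without. Fitted values of genes with 0 counts in a group depend on the prior count.

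Genes listed as glucocorticoid receptor targets did not move one way when LPS was added to dexamethasone. The list was written with earlier results of these data known. Of 26 tested, 10 rose and 14 fell, with a median log2 fold change of -0.29 and extremes of -7.03 for Flt3 and 10.75 for Lcn2. Of the 26, 7 had a lower mean with dexamethasone alone than in untreated cells. Nr3c1, the receptor itself, had 212, 207, 210.3 and 207 CPM in dexLPS, against 111, 108, 111 and 112 CPM in dex (log2 fold change 0.92 ± 0.045, adjusted p = 4.3e-24). Fkbp5, a co-chaperone of the receptor, had 687, 669, 695 and 673 CPM in dexLPS, against 893, 883, 871 and 865 CPM in dex, a small fall without overlap (-0.37 ± 0.048). Tsc22d3, the leucine zipper GILZ, had 134, 122, 151 and 149 CPM in dexLPS, against 464, 459, 493 and 476 CPM in dex, also without overlap (-1.77 ± 0.059). Ddit4, an inhibitor of mTORC1, fell to 28.9 ± 2.95 CPM in dexLPS against 302 ± 20.1 CPM in dex (-3.39 ± 0.075), Klf9 to 102 ± 2.76 CPM in dexLPS against 219 ± 6.18 CPM in dex (-1.10 ± 0.055) and Per1, of the circadian clock, to 162 ± 9.35 CPM in dexLPS against 187 ± 4.91 CPM in dex (-0.21 ± 0.042). Other targets of the receptor went up. Sgk1, a kinase, rose to 283 ± 9.61 CPM in dexLPS against 112 ± 3.32 CPM in dex (1.33 ± 0.04) and Mt1, a metallothionein, to 384 ± 19.4 CPM in dexLPS against 114 ± 2.75 CPM in dex (1.75 ± 0.05). For comparison, untreated cells had means of 29.9 CPM for Fkbp5 and 39 CPM for Tsc22d3.

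Transcription factors of macrophage identity fell more often than they rose, 14 against 3 of 20. Maf, which helps to maintain the non-dividing, resident-like state, had 85.1, 84, 93.3 and 93.6 CPM in dexLPS, against 942, 955, 918 and 874 CPM in dex (-3.37 ± 0.042). Its groups did not overlap. Pparg, a lipid-sensing nuclear receptor, fell to 1.21 ± 0.278 CPM in dexLPS against 22.2 ± 1.47 CPM in dex (-4.18 ± 0.12), and Irf8, a lineage factor of mononuclear phagocytes, to 64.5 ± 1.51 CPM in dexLPS against 213 ± 2.49 CPM in dex (-1.72 ± 0.036). Spi1, which encodes PU.1, was not called. Nr1h3, the oxysterol receptor LXR-alpha, rose to 30.9 ± 1.57 CPM in dexLPS against 13.8 ± 0.752 CPM in dex (1.16 ± 0.077), and Bhlhe40 and Nr4a1 rose too. On a separate list of AP-1, IRF and STAT factors and their partners, 15 of 30 rose and 12 fell. There Cebpb rose to 396 ± 13.7 CPM in dexLPS against 148 ± 8.99 CPM in dex (1.42 ± 0.056), and the small Maf protein gene Maff to 51.2 ± 2.11 CPM in dexLPS against 0.82 ± 0.164 CPM in dex (5.94 ± 0.12).

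Receptors of clearance mostly fell. Of 19 tested scavenger and efferocytosis receptors 14 fell and 4 rose, with a median log2 fold change of -1.59. Stab1, stabilin-1, had 372, 373, 361 and 388 CPM in dexLPS, against 3309, 3398, 3397 and 3354 CPM in dex (-3.17 ± 0.041). The ligand gene Gas6, whose product bridges dying cells to MERTK, had 39.1, 39.8, 40.7 and 38.3 CPM in dexLPS, against 834, 819, 809.7 and 814 CPM in dex (-4.38 ± 0.038). Both were far lower in every dexLPS library. Mertk fell to 113 ± 4.83 CPM in dexLPS against 286 ± 1.28 CPM in dex (-1.34 ± 0.049), Cd163, the haemoglobin scavenger, to 83 ± 0.979 CPM in dexLPS against 139 ± 0.785 CPM in dex (-0.74 ± 0.061), and Cd36 to 15.5 ± 0.333 CPM in dexLPS against 229 ± 15.7 CPM in dex (-3.89 ± 0.078). Clec7a, the beta-glucan receptor dectin-1, fell to 0.327 ± 0.213 CPM in dexLPS against 24.7 ± 1.01 CPM in dex (-6.18 ± 0.17), whereas Clec4e, the mycobacterial glycolipid receptor Mincle, had 5004, 5124, 4930.5 and 4995 CPM in dexLPS, against 81.6, 81.5, 78.9 and 80.8 CPM in dex (5.96 ± 0.045). These pattern-recognition lectins therefore moved in opposite directions. Of 19 complement and Fc receptor genes 11 rose and 8 fell. C3 had 1712, 1664, 1753 and 1665 CPM in dexLPS, against 20.1, 16.9, 18.6 and 19.9 CPM in dex (6.50 ± 0.068), while C1qa, a subunit of the first classical pathway component, fell to 64.4 ± 7.12 CPM in dexLPS against 513 ± 12.1 CPM in dex (-3.00 ± 0.053).

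Lysosomal genes fell in 25 of 32 cases and rose in 7, with a median of -0.53, and without scaling between libraries 4 were called higher. Psap, the precursor of the saposins, had 5269, 5212, 5392 and 5289.7 CPM in dexLPS, against 15602, 15075, 15774 and 14983 CPM in dex (-1.54 ± 0.036). Lamp1 fell to 1854 ± 10 CPM in dexLPS against 2750.2 ± 31.6 CPM in dex (-0.57 ± 0.025), while Ctsz, a cathepsin, rose to 1968 ± 20.7 CPM in dexLPS against 829 ± 7.61 CPM in dex (1.25 ± 0.036). Among 18 iron and zinc genes 12 rose and 5 fell. Tfrc, the transferrin receptor, rose to 97.3 ± 3.06 CPM in dexLPS against 17.9 ± 1.12 CPM in dex (2.45 ± 0.051), and Slc40a1, the iron exporter ferroportin, had 1.36, 2.63, 2.75 and 2.54 CPM in dexLPS, against 56.6, 56.8, 62 and 56.1 CPM in dex (-4.63 ± 0.11). Tfrc, for iron uptake, and Slc40a1, for iron export, thus went opposite ways, again with no overlap. Of 18 matrix protease and tissue factor genes 9 rose and 8 fell. Mmp12, the macrophage elastase, had 2.02, 2.77, 2.54 and 2.59 CPM in dexLPS, against 17.7, 16.7, 18.6 and 23.7 CPM in dex (-2.94 ± 0.24), and Mmp8, a collagenase, fell to 16.1 ± 1.74 CPM in dexLPS against 95.7 ± 2.49 CPM in dex (-2.58 ± 0.079). Igf1, an insulin-like growth factor of resident macrophages, fell to 61 ± 1.16 CPM in dexLPS against 763 ± 9.27 CPM in dex (-3.65 ± 0.051), and Csf1, which encodes M-CSF, rose to 45.8 ± 1.64 CPM in dexLPS against 3.45 ± 0.447 CPM in dex (3.72 ± 0.094).

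Energy metabolism moved in several directions. Of 23 glycolysis genes 22 rose and Hk3 fell, with a median log2 fold change of 1.46. Slc2a1, the glucose transporter GLUT1, had 143, 147, 133 and 144 CPM in dexLPS, against 36, 34.6, 33.7 and 34.6 CPM in dex (2.03 ± 0.056). Pfkfb3, which makes the activator of phosphofructokinase, had 1009, 972, 1108 and 1063 CPM in dexLPS, against 62.2, 60.2, 68.8 and 61 CPM in dex (4.04 ± 0.054). Ldha, lactate dehydrogenase, averaged 1129 ± 17 CPM in dexLPS against 383 ± 7.49 CPM in dex (1.56 ± 0.034). The groups were separate for all 3. HIF1 targets outside glycolysis had no common direction, with 8 higher, 9 lower and Hilpda not called of 18, and a median of -0.10. Vegfa, the vascular growth factor, fell to 11.4 ± 1.24 CPM in dexLPS against 28.2 ± 3.03 CPM in dex (-1.29 ± 0.087), Ndrg1, a stress-responsive gene, to 6.88 ± 1.08 CPM in dexLPS against 145 ± 4.14 CPM in dex (-4.40 ± 0.075), and Bnip3, a mitophagy receptor, rose by little to 26.9 ± 0.831 CPM in dexLPS against 21.8 ± 1.27 CPM in dex (0.30 ± 0.066), a call that was lost without scaling between libraries (0.11, adjusted p = 0.127).

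Mitochondrial genes rose. Of 24 genes of the TCA cycle and its branches 21 rose and Idh1 and Suclg2 fell, with a median of 0.75. Idh3a, the catalytic subunit of the NAD-dependent isocitrate dehydrogenase, had 117, 111, 117 and 111 CPM in dexLPS, against 23, 22.7, 19.4 and 24 CPM in dex (2.35 ± 0.053). Cs, citrate synthase, averaged 371 ± 2.59 CPM in dexLPS against 167 ± 5.34 CPM in dex (1.15 ± 0.037). Of 71 nuclear genes of the respiratory chain 70 rose and Ndufb11 was not called, with a median of 1.01. Cycs, cytochrome c, had 129.8, 132, 137 and 131 CPM in dexLPS, against 23.3, 24.3, 26.8 and 25.7 CPM in dex (2.41 ± 0.051), and Uqcrq, a subunit of complex III, averaged 167 ± 4.29 CPM in dexLPS against 41.7 ± 1.71 CPM in dex (2.00 ± 0.056). Both rose in 4 of 4 libraries. Of 11 tested mitochondrially encoded genes 8 rose, by 0.65 or less, and without scaling between libraries 4 were called higher. The share of counts from mitochondrially encoded genes was 0.574% ± 0.0397 with dexamethasone plus LPS and 0.534% ± 0.0262 with dexamethasone alone (SD, n = 4 each; exact permutation test, two-sided p = 0.2).

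Stress and redox genes rose. The list joining serine synthesis to the integrated stress response rose in all 16 genes (median 1.36), led by Slc7a11, the cystine importer, with 648, 661, 591 and 645 CPM in dexLPS, against 6.96, 6.16, 6.41 and 6.11 CPM in dex (6.64 ± 0.081), and Phgdh, the first enzyme of serine synthesis, with 344, 342, 315 and 315 CPM in dexLPS, against 11.5, 11, 11.4 and 12.8 CPM in dex (4.82 ± 0.11). Asns, asparagine synthetase, rose to 58.2 ± 2.73 CPM in dexLPS against 11.5 ± 1.7 CPM in dex (2.34 ± 0.084). No member of the list fell. Of 24 NRF2 and glutathione genes 22 rose and 0 fell (median 0.81), and without scaling between libraries 3 were called lower. Txnrd1, thioredoxin reductase, averaged 358 ± 11.9 CPM in dexLPS against 159 ± 4.23 CPM in dex (1.17 ± 0.033), and Hmox1, haem oxygenase, rose by little to 664 ± 9.85 CPM in dexLPS against 577 ± 9.87 CPM in dex (0.20 ± 0.037), a rise that was not called without scaling between libraries (0.0088). Of 20 chaperones of the endoplasmic reticulum 18 rose (median 0.75), among them Hspa5, the chaperone BiP, at 1601 ± 31.5 CPM in dexLPS against 904 ± 15.6 CPM in dex (0.83 ± 0.027).

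Of 24 cholesterol synthesis and uptake genes 23 rose and Ebp fell, with a median of 1.47. Fdps, which makes farnesyl pyrophosphate, had 187, 197, 185 and 184 CPM in dexLPS, against 25.7, 29.5, 27.8 and 31.6 CPM in dex (log2 fold change 2.71 ± 0.077, adjusted p = 6.6e-34). Sqle, squalene epoxidase, averaged 110.1 ± 5.84 CPM in dexLPS against 31.5 ± 2.03 CPM in dex (1.80 ± 0.061). Groups did not overlap for any of the 24 genes, as for 68.0% of all tested genes. LXR targets, which serve cholesterol export and lipid synthesis, were divided, with 6 higher and 5 lower of 11. Scd1, a fatty acid desaturase, had 207, 229.7, 224 and 219 CPM in dexLPS, against 6.05, 8.75, 6.06 and 8.7 CPM in dex (4.88 ± 0.11), and Apoe, apolipoprotein E, had 94.4, 91.9, 101 and 91.7 CPM in dexLPS, against 4415, 4079, 4448 and 3954 CPM in dex (-5.48 ± 0.067), so that the 2 moved far apart.

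Of 35 cell cycle genes 30 fell, Ccne1, E2f1 and Mki67 rose, and Mcm3 and Tyms were not called, with a median of -0.83. Top2a, topoisomerase II alpha, had 47, 44.3, 44.7 and 42 CPM in dexLPS, against 97.4, 117, 97.2 and 111 CPM in dex (-1.25 ± 0.06). Cenpf, a centromere protein, had 5, 4.06, 5.83 and 4.7 CPM in dexLPS, against 21.4, 21.7, 18.7 and 24.6 CPM in dex (-2.15 ± 0.11). Ccne1, which encodes cyclin E1 of the G1 to S transition, averaged 10.1 ± 0.402 CPM in dexLPS against 3.64 ± 0.5 CPM in dex (1.47 ± 0.14), and Mki67, a proliferation marker, 181 ± 2.32 CPM in dexLPS against 117 ± 14.4 CPM in dex (0.63 ± 0.077). Libraries of the groups were apart for all 4 genes. Without dex replicate 3, Mcm3 was called lower (-0.16).

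**Figure D3:**
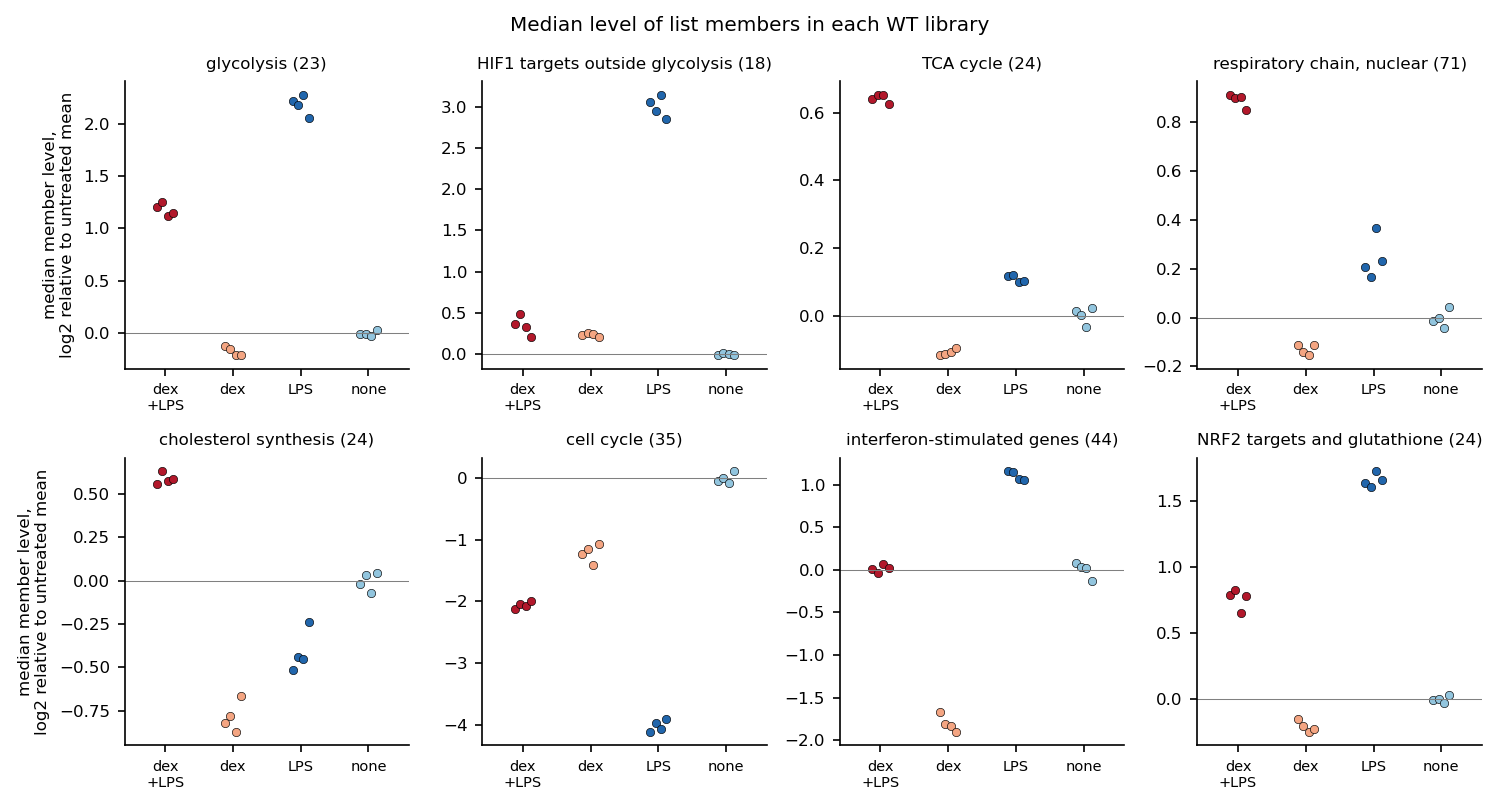
Median level of the members of 8 lists in each WT library, as log2(CPM + 0.5) relative to the untreated mean of the gene (points, 1 library each; numbers in brackets, genes). Respiratory chain and cholesterol synthesis genes were highest with dexamethasone plus LPS, at 0.85 to 0.91 and 0.56 to 0.63, and HIF1 targets lay at 0.21 to 0.49 with dexamethasone plus LPS, close to the 0.20 to 0.25 with dexamethasone alone.

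Set beside LPS without dexamethasone (LPS alone over untreated, 8 other libraries), the response with dexamethasone called a similar share of genes, and for most of them the size of the effect differed. LPS alone changed 10923 genes (75.7%), with 5393 higher (37.4%) and 5530 lower (38.3%). Of the 1825 genes that rose 2-fold or more with dexamethasone, 1143 (62.6%) also did so without it, which is 52.6% of the 2175 (15.1%) that rose 2-fold or more without it. Of the 2126 genes that fell 2-fold or more with dexamethasone, 1351 (63.5%) also did so without it, or 54.1% of 2495 (17.3%). The difference of the LPS effects, with minus without dexamethasone, was called for 8713 genes (60.4%), with 4617 above 0 (32%) and 4096 below 0 (28.4%). Of the 2175 genes raised 2-fold or more by LPS alone, the effect was smaller with dexamethasone for 1181 and larger for 251, and the difference was not called for 743. These genes were chosen by the effect without dexamethasone, which is subtracted in the difference, so the choice itself favours smaller effects. Among genes called higher in both settings the difference was above 0 for 1016, below 0 for 1128 and not called for 1388. In 747 genes LPS raised the level without dexamethasone and lowered it with dexamethasone, and in 730 it was the reverse.

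**Figure D4:**
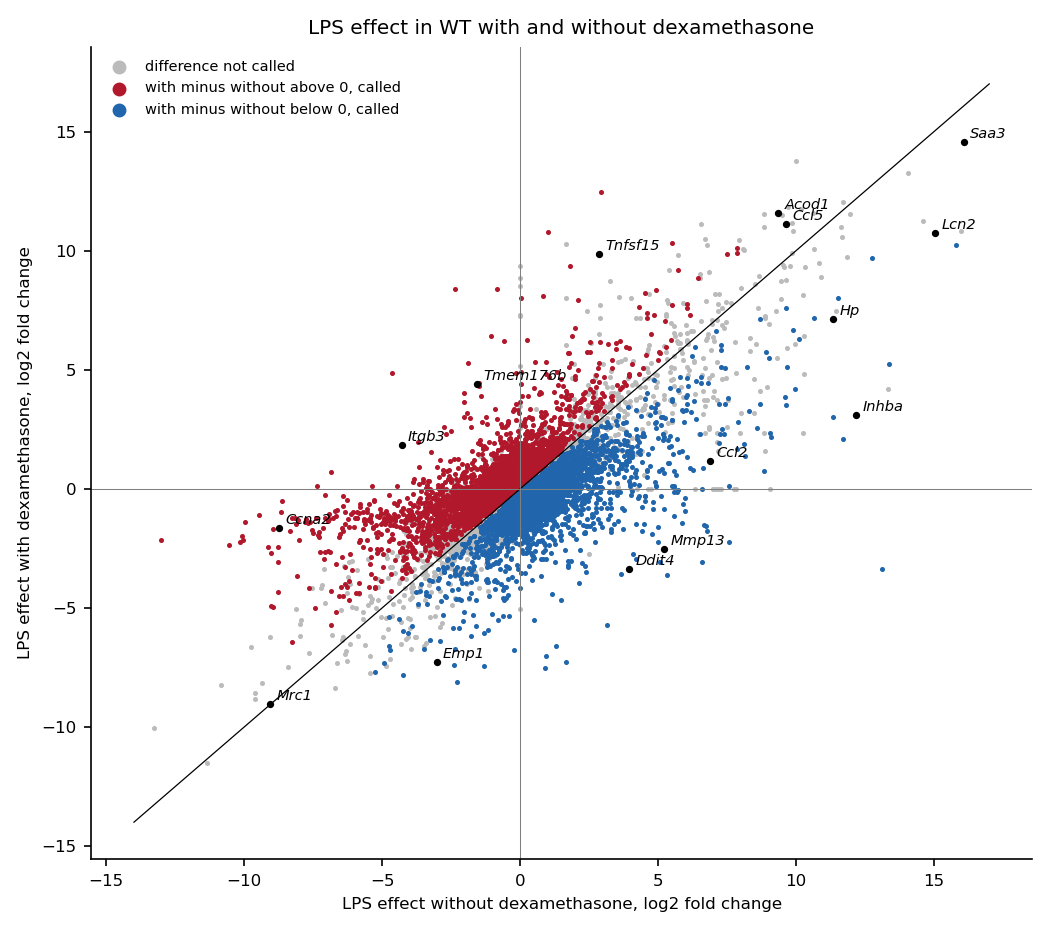
LPS effect on each of 14427 genes with dexamethasone (vertical, log2 fold change) against the effect without it (horizontal, log2 fold change), WT; colours give the call of the difference (red, above 0; blue, below 0; grey, not called; black, named genes) and the line marks equal effects. Ccl2, Inhba, Mmp13 and Ddit4 lie far below the line and Tmem176b, Itgb3 and Ccna2 far above it; values of genes with 0 counts in a group depend on the prior count.

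The list most reduced was that of HIF1 targets outside glycolysis, where the difference was below 0 for 16 of 18 genes and above 0 for none, with medians of -0.10 with and 3.02 without dexamethasone. Vegfa had means of 473 ± 39.1 CPM with LPS alone and 67.4 ± 5.91 CPM in untreated cells and a difference of -4.11 ± 0.1 (log2, SE; adjusted p = 3.9e-35). Bnip3 had means of 405 ± 24.1 CPM with LPS alone and 13.6 ± 0.651 CPM in untreated cells (difference -4.59 ± 0.091). In glycolysis the difference was below 0 for 16 of 23 genes and above 0 for 5, as for Slc2a1, with 1284 ± 151 CPM with LPS alone and 31 ± 1.01 CPM in untreated cells (difference -3.34 ± 0.08). Chemokines had 9 below and 4 above 0 of 22, and 19 of the 22 had a lower mean in dexLPS than with LPS alone. Ccl2 averaged 1099 ± 207 CPM with LPS alone and 9.36 ± 2.13 CPM in untreated cells, a difference of -5.71 ± 0.36 (adjusted p = 3.7e-19), while Ccl3, with 198 ± 11.8 CPM with LPS alone and 50.4 ± 6.17 CPM in untreated cells, had a larger effect with dexamethasone (1.48 ± 0.08). Hmox1, with 5809 ± 351 CPM with LPS alone and 335 ± 6.58 CPM in untreated cells, differed by -3.91 ± 0.054. Sod2 and Mrc1 had differences of 0.028 ± 0.047 and 0.023 ± 0.3 that were not called, and Tnfaip3 one of 0.54 ± 0.072.

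In other lists the difference was mostly above 0. For cholesterol synthesis the difference was above 0 for 24 of 24 genes (median 1.83), as for Fdps with means of 54.2 ± 7.46 CPM with LPS alone and 87.7 ± 9.01 CPM in untreated cells (difference 3.41 ± 0.11, adjusted p = 4.2e-31). All 24 had a lower mean with dexamethasone alone than in untreated cells, as did 52.1% of all tested genes, and 23 of the 24 had a higher mean with dexamethasone plus LPS than in untreated cells. For nuclear respiratory chain genes the difference was above 0 for 68 of 71 and below 0 for 1 (median 0.80), and for the TCA cycle for 23 of 24 (median 0.88). For interferon-stimulated genes it was above 0 for 33 of 44 and below 0 for 5 (median 0.56), as for Isg15 with 376 ± 47.4 CPM with LPS alone and 60.9 ± 5.44 CPM in untreated cells (difference 1.43 ± 0.11). All 44 had a lower mean with dexamethasone alone than in untreated cells, and all 44 had a lower mean with dexamethasone plus LPS than with LPS alone, against 49.5% of all tested genes. Acod1 and Tnf likewise had larger effects with dexamethasone (2.24 ± 0.16 and 0.89 ± 0.14) at lower levels, with means of 6483 ± 249 CPM with LPS alone and 9.89 ± 1.26 CPM in untreated cells for Acod1 and 267 ± 20 CPM with LPS alone and 17.6 ± 0.87 CPM in untreated cells for Tnf. Their lists leaned the other way. Among proinflammatory cytokines the difference was below 0 for 5 of 15 genes, above 0 for 2 and not called for 8 (median -1.93). Inflammatory enzymes had 8 of 17 below 0 and 5 above (median -0.26). Il1a averaged 2502 CPM with LPS alone and 89.5 CPM in dexLPS (difference -5.56), and Ptgs2 2545 and 46.6 CPM (difference -3.49). For Il1b and Nos2, with few or no counts in dex, the difference was not called. Il1b averaged 8469 CPM with LPS alone and 42.3 CPM in dexLPS, and Nos2 3850 and 60 CPM. The mean was lower in dexLPS than with LPS alone for 13 of the 15 cytokines and 12 of the 17 enzymes, against 49.5% of all tested genes. Cell cycle genes were lowered less with dexamethasone, with medians of -0.83 with and -4.23 without it, and the difference was above 0 for 35 of 35 (median 3.36). Top2a, for example, averaged 3.79 ± 0.338 CPM with LPS alone and 288 ± 12.1 CPM in untreated cells (difference 5.00 ± 0.11), beside 44.5 CPM in dexLPS. All 35 cell cycle genes had a lower mean with dexamethasone alone than in untreated cells, so their fall with dexamethasone began from a lower level. With dexamethasone plus LPS, 33 of the 35 had a lower mean than in untreated cells.

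Single genes stood out by opposite effects. Tmem176b, a membrane protein of dendritic cells and macrophages, rose with dexamethasone, to 307 ± 5.17 CPM in dexLPS against 14.5 ± 0.37 CPM in dex (4.40 ± 0.067) and fell without it, with 11.3 ± 1.39 CPM with LPS alone and 32.9 ± 3.64 CPM in untreated cells (-1.55 ± 0.082; difference 5.95 ± 0.1, adjusted p = 2.4e-41). Itgb3, the integrin beta 3 chain, rose with dexamethasone, to 39.8 ± 2.41 CPM in dexLPS against 11.2 ± 1.13 CPM in dex (1.83 ± 0.081) and fell without it, with 1.66 ± 0.609 CPM with LPS alone and 32.9 ± 2.72 CPM in untreated cells (-4.30 ± 0.12; difference 6.12 ± 0.14). Other genes went the opposite way. Mmp12 fell with dexamethasone and rose without it, with 1698 ± 367 CPM with LPS alone and 93.4 ± 22.3 CPM in untreated cells (4.19 ± 0.11; difference -7.13 ± 0.24). Ddit4 did the same, with 46.8 ± 9.82 CPM with LPS alone and 3.04 ± 0.782 CPM in untreated cells (3.95 ± 0.12; difference -7.34 ± 0.14), and the highest of the 4 means was that of dex, 302 CPM. Inhba, the subunit of activin A, rose in both settings, to 2.99 ± 0.156 CPM in dexLPS against 0.336 ± 0.134 CPM in dex and, without dexamethasone, with means of 853 ± 34.8 CPM with LPS alone and 0.177 ± 0.171 CPM in untreated cells (difference -9.07 ± 0.77). Arg1, arginase 1, was at 393 CPM with LPS alone and at 0 counts with dexamethasone plus LPS.

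The effect of LPS with dexamethasone was also measured in Acod1 KO macrophages, where chemokine, HIF1 and interferon-stimulated genes had larger effects than in WT for most members. The deleted part of the gene is not stated, and Acod1 averaged 3933 ± 195 CPM with dexamethasone plus LPS and 0.49 ± 0.151 CPM with dexamethasone alone in KO libraries, so the reads give no check of the KO label. All 4 KO libraries with dexamethasone plus LPS were in sequencing lane 2, as was 1 of the 4 KO libraries with dexamethasone alone. The other 3 of these and all WT libraries were in lane 3. Genotype and lane therefore cannot be told apart for the KO libraries with LPS, and the LPS effect in KO cells is largely a comparison between lanes. The difference of effects, KO minus WT, was called for 6398 genes (44.3%), with 3151 above 0 (21.8%) and 3247 below 0 (22.5%), and for 5060 with a lane term that rests on that 1 library. Interferon-stimulated genes were above 0 in 41 of 44 cases and below in 0, HIF1 targets in 16 of 18 and 0, glycolysis genes in 16 and 1 of 23, and chemokines in 12 and 3 of 22. Below 0 were 32 of 35 cell cycle genes, 22 of 24 cholesterol synthesis genes, 64 of 71 respiratory chain genes and 16 of 26 glucocorticoid receptor targets. Ccl2 averaged 461 ± 68.1 CPM with dexamethasone plus LPS and 3.6 ± 0.897 CPM with dexamethasone alone in KO cells (difference 5.83 ± 0.38, adjusted p = 2.8e-18), and Vegfa 279.5 ± 11.2 CPM with dexamethasone plus LPS and 35.1 ± 3.16 CPM with dexamethasone alone (4.29 ± 0.11). Il1b averaged 4362 ± 439 CPM in KO and 42.3 ± 5.01 CPM in WT cells with dexamethasone plus LPS, and the difference of effects was not called (adjusted p = 0.178), with 2 and 1 counts in the KO and WT groups given dexamethasone alone. Arg1 averaged 158 ± 16.5 CPM in KO cells with dexamethasone plus LPS, where WT cells had 0 counts.

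**Figure D5:**
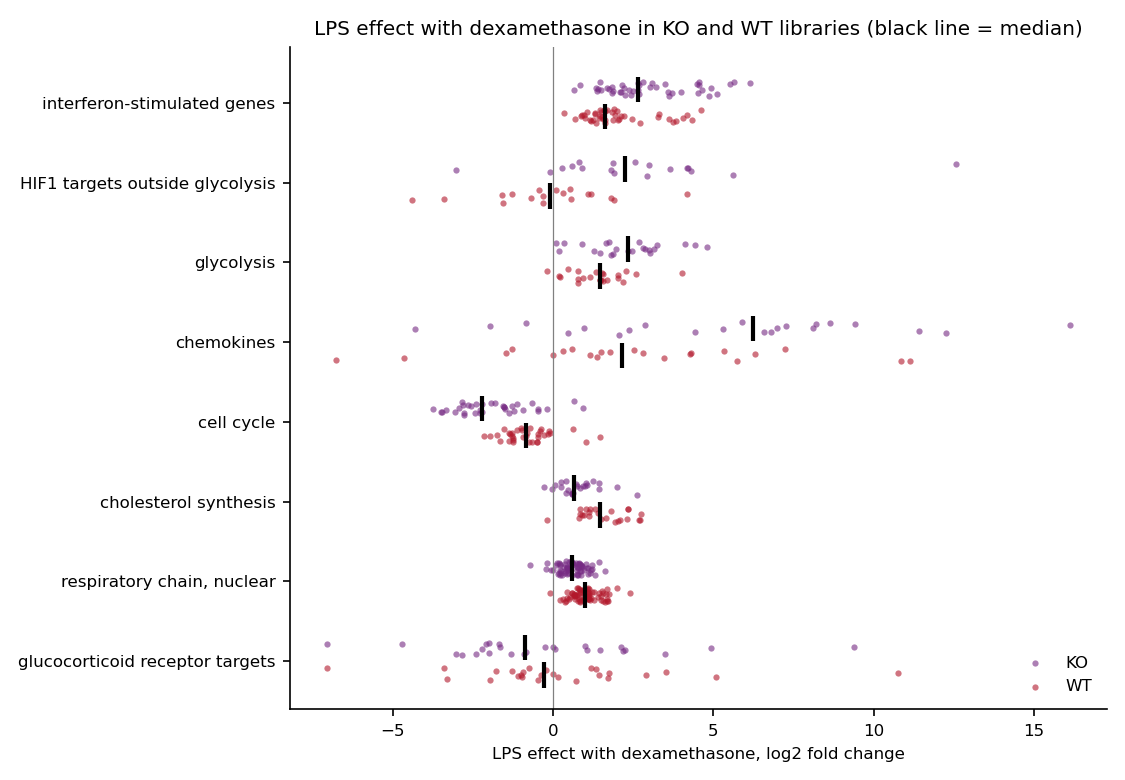
Log2 fold change of LPS with dexamethasone for the members of 8 lists (points) in KO (purple) and WT (red) libraries; black lines are medians. HIF1 targets and chemokines lie further right in KO, and cell cycle and cholesterol synthesis genes further left; KO libraries with LPS came from another sequencing lane.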

How the data were processed

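Per the file header, the deposited counts were made by the authors with featureCounts 2.0.0, as read pairs over exons of GENCODE genes without regard to strand, so antisense or overlapping genes cannot be separated. The submitters' processing notes name STAR and GRCm38, while the annotation named in the header belongs to a later build, so no gene coordinates are given from the table. Of 56953 genes 52029 had a symbol, and those without held 0.846% of counts. Raw counts of all 32 libraries entered 1 model of 8 group means in edgeR 4.0.16 (R 4.3.3), with TMM scaling, filterByExpr (14427 genes), quasi-likelihood tests and Benjamini-Hochberg adjustment at 0.05. CPM use the same scaling. The procedure was also run on simulated counts in which few genes changed, by modest folds. That run cannot show how the scaling performs where most genes change, as they did here. Replicate pairs differed beyond sampling noise, with a chi-square per degree of freedom of 2.01 to 2.8 (12 pairs). Intervals are exact at 95% and cover counting error only. Motifs were searched on both strands of RefSeq promoters of 300 bases. The libraries, the gene lists and the rule for named genes were chosen with earlier results of these data known. The rule took, from each list, up to 5 called members of largest change with a mean of 5 CPM or more and those against the list's direction, the 10 largest rises and falls, and the 5 genes with most counts. For the difference between settings it took the 8 largest on either side. Genes named outside it, such as Tlr4, Nfkbia, Irf9, Fkbp5, Tsc22d3, Ccl2, Ccl3, Mertk, Top2a and members said not to be called, were picked after their values were seen. Alternatives were other scalings, filters, thresholds and tools (DESeq2 1.42.0), the compared groups alone, a replicate block, lane and each library left out. Some genes are not reported here.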

Additional observations from a re-analysis of the deposited data

Results flagged for a closer look

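The LPS effect with dexamethasone differed from the effect without it for 8713 genes (edgeR, interaction contrast, adjusted p under 0.05). In log2 units, with minus without dexamethasone, the difference was below 0 for Inhba (-9.07), Ddit4 (-7.34), Mmp12 (-7.13), Ccl2 (-5.71), Bnip3 (-4.59), Vegfa (-4.11), Hmox1 (-3.91) and Slc2a1 (-3.34). It was above 0 for Itgb3 (6.12), Tmem176b (5.95), Top2a (5.00), Fdps (3.41), Acod1 (2.24), Ccl3 (1.48), Isg15 (1.43), Tnf (0.89) and Tnfaip3 (0.54). The effect with dexamethasone differed between KO and WT cells for 6398 genes, among them Ccl2 (5.83) and Vegfa (4.29). All 4 KO libraries with dexamethasone plus LPS were in sequencing lane 2. All WT libraries and 3 of the 4 KO libraries with dexamethasone alone were in lane 3, so lane cannot be told apart from this difference.

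Within the WT groups, 8 of 307 sets of 4 libraries held 1 library apart from the rest by Dixon's test, which flags about 1 set in 20 by chance. Ccl2 was at 5.67 CPM in dexLPS replicate 3, against 6.95 to 7.08 CPM in the others of its group. Socs3 was at 282 CPM in dexLPS replicate 3, against 269.7 to 271 CPM. Cd74 was at 66.7 CPM in dexLPS replicate 1, against 61.5 to 62.2 CPM. Slc40a1 was at 1.36 CPM in dexLPS replicate 1, against 2.54 to 2.75 CPM, and at 62 CPM in dex replicate 3, against 56.1 to 56.8 CPM. Nlrp3 and Vegfa were at 111 and 23.6 CPM in dex replicate 4, against 116 to 117 CPM for Nlrp3 and 29.1 to 30 CPM for Vegfa. Rela was at 117 CPM in dex replicate 2, against 128 to 129 CPM.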

How the results depend on the processing

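The number of genes called for LPS with dexamethasone stayed within 9559 to 10963 under the scalings, filters, tool, threshold and sample choices tried, and that for the difference between KO and WT within 5053 to 6754. Leaving out 1 library at a time gave 10318 to 10407 genes, 3954 to 4001 with a 2-fold change, 8534 to 8708 for the difference with minus without dexamethasone and 6121 to 6272 for KO minus WT. With the replicate number as a block the counts were 10579, 8733 and 6467. Same-numbered libraries did not deviate together over all tested genes (correlations of -0.0134 to 0.0116 over 4 pairs), and pairs with different numbers had -0.0218 to 0.0231. A shared source that acts on few genes could go unseen, so whether the numbers pair the libraries stays unknown. Without scaling between libraries, values that were not called changed sign for Tgfb1 (-0.17), Rela (-0.17), Spi1 (-0.19), Lyz2 (-0.18) and Hilpda (-0.082), and all of these but Hilpda were called lower there. Il4ra (-0.23), Birc2 (-0.28), Ndufb11 (-0.28), Mcm3 (-0.29) and Tyms (-0.35) were also called lower only with that setting, apart from Mcm3, which was called without dex replicate 3 too. The cause was not tested. Spi1 was also below 0 without the filter on low counts (-0.0059), its values without single libraries spanned -0.0085 to 0.02, and those of Rela -0.011 to 0.035. The uncalled difference of Mrc1 was -0.18 to 0.24 without single libraries. Arg1 was called lower (-3.38) without the filter. Small changes are limited by the scaling, and genes with few counts by depth.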
